A study of Mus musculus with 12 samples.

Results

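The genes described here are 10 genes of the cAMP response in 3T3-L1 cells: Crem and Creb1, the nuclear receptor genes Nr4a1, Nr4a2 and Nr4a3, the kinase gene Sik1, and the phosphodiesterase genes Pde4b, Pde4d, Pde3b and Pde7a. On the array they were measured by the non-control probes whose transcript accession belongs to one of these genes, 21 of 41174 probes. Crem had 6 probes, Creb1 and Pde4b had 3 each, Pde4d and Pde7a had 2 each, and the other 5 genes had 1 each. Judged by the scanner software's mark for spots well above background, 18 of the 21 probes were detected throughout at least 1 group of samples.

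3T3-L1 is an established mouse line of embryonic fibroblasts that can become fat cells in culture, so every group comes from the same line. Confluent cells in medium with newborn bovine serum were harvested with no hormones added (0 h) or 6 h after a change to medium with fetal bovine serum, 0.5 mM isobutylmethylxanthine (IBMX), 1 µM dexamethasone and 5 µg/ml insulin. Lysates of both times were made with cycloheximide and run on sucrose gradients. Of these the lighter fractions, 5 to 7, gave the non-polysomal pool, and the heavier ones, 9 to 11, gave the polysomal pool. Each of the 4 groups (0 h non-polysomal, 0 h polysomal, 6 h non-polysomal, 6 h polysomal) had 3 replicates, each on its own one-color array, and the 12 arrays filled 3 slides with 1 of each group per slide. The 3 agents and the serum were changed together, so the effect of IBMX cannot be told apart from that of dexamethasone, insulin or serum.

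IBMX blocks most cyclic nucleotide phosphodiesterases, the enzymes that degrade cAMP, so that cAMP accumulates in the cell. cAMP frees the catalytic subunits of protein kinase A (PKA), which phosphorylate the transcription factor CREB at the cAMP response elements of its target genes. Among the products of these targets are parts of negative feedback, such as repressors made from the Crem gene, kinases that hold back CREB coactivators, and new phosphodiesterases. IBMX is part of the usual cocktail for adipogenesis, in which CREB is known to act early, upstream of the C/EBP factors.

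The promoters of the 3 NR4A genes are shown first because these genes rose in at least 1 pool and because the core of a cAMP response element recurs in them. The sequences are RefSeq's, on the build GRCm38.p6, and give the 250 bases before the annotated start of transcription in the direction of the gene. They lie at chr15:101266596-101266845 on the plus strand for Nr4a1, at chr2:57124004-57124253 on the minus strand for Nr4a2 and at chr4:48045055-48045304 on the plus strand for Nr4a3. Capitals mark every core site TGACG or, on the other strand, CGTCA.
Nr4a1: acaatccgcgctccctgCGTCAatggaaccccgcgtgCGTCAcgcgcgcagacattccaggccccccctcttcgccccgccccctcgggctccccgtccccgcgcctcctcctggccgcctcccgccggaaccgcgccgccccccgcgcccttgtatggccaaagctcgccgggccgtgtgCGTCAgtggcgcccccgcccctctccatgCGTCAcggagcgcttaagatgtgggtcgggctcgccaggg
Nr4a2: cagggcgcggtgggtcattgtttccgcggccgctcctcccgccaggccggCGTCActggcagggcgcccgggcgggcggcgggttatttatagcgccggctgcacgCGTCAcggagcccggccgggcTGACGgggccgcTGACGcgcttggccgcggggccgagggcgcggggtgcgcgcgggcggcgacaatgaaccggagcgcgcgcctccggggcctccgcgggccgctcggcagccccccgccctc
Nr4a3: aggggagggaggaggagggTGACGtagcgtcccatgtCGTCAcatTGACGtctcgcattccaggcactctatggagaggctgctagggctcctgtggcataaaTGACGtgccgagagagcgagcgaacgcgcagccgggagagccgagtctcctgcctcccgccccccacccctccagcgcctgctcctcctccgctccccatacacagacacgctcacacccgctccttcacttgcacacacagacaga
Each of these promoters held 4 core sites. The capitals of Nr4a1 begin 233, 213, 69 and 40 bases before the start, those of Nr4a2 begin 200, 144, 123 and 111 bases before it, and those of Nr4a3 begin 231, 213, 205 and 147 bases before it. Among 32851 promoters of the same length in the table, 17.8% held at least 1 core site on either strand and 0.137% (45 promoters) held 4 or more. The count of 4 is that of the 3 promoters shown, which were picked because the core recurs in them. All promoters were counted whatever their base composition, so these shares are not a test of enrichment. The full palindromic site TGACGTCA, which contains both core sites in overlap, was in none of these 3 and in 1.55% of all promoters. Of the 10 genes, 6 were in the table, with 9 promoters. Pde4b had 1 core site, 34 bases before 1 of its 4 starts, and the windows of Creb1 and Pde4d held none. A match of these letters is a description of the sequence and says nothing of binding.

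Precision is limited by the number of arrays. Between 55.7% and 60.8% of the probes of an array were well above background, no spot was saturated, and Pearson's r between the arrays of a group ranged from 0.985 to 0.992 over probes, which are not independent replicates. The 9 fibroblast and preadipocyte marker genes on the list, such as Col1a1 and Pdgfra, were all well above background on every array, as were 4 of 5 mature adipocyte markers and 1 of 3 epithelial and 1 of 2 blood cell markers, while none of 3 endothelial markers was. Arrays were scaled by 10 spike-in transcripts, control RNAs added to each sample, and this scaling placed the median change of all probes from 0 h to 6 h at a log2 difference of 0.54 in the polysomal and 0.04 in the non-polysomal pool. The spike-ins themselves did not move as one on the 6 h polysomal arrays. The 5 dimmer ones differed there by -0.83 from the other arrays and the 5 brighter ones by -0.09 on the log2 scale. Even the dimmer ones had mean log2 signals of 7.82 to 16.8. Probes of lower signal, such as that of Pde3b, were thus scaled by spike-ins brighter than themselves. For the probes given array by array that were well above background in the polysomal pool at both times, the polysomal change is therefore given below also relative to the median of all probes.

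Most of the cAMP response genes were higher 6 h after induction, in both pools. A probe was called changed when limma's adjusted p over all probes was below 0.05 and the log2 difference was above 1 or below -1, a change of more than 2-fold. In the polysomal pool 13 of 21 probes rose and 0 fell, against 19.2% and 5.00% of all probes tested, and they stood for 7 of the 10 genes. In the non-polysomal pool 13 probes of 7 genes rose and 0 fell, against 8.12% higher and 8.11% lower among all probes. At an unadjusted p below 0.05 limma found 20 probes higher and 0 lower in the polysomal and 18 higher and 0 lower in the non-polysomal pool. Among all probes 53.7% were higher and 12.3% lower at that limit in the polysomal pool, and 22.7% and 22.1% in the non-polysomal pool. The median log2 difference of the 21 probes was 1.86 in the polysomal and 2.05 in the non-polysomal pool. Crem, Nr4a1, Nr4a2, Sik1, Pde4b and Pde4d rose in both pools, Nr4a3 was called in the non-polysomal pool and Pde3b in the polysomal pool, and no probe of Creb1 or Pde7a was called in either. In RNA from whole cultures, fewer cells of a kind and less RNA per cell cannot be told apart.

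**Figure D1:**
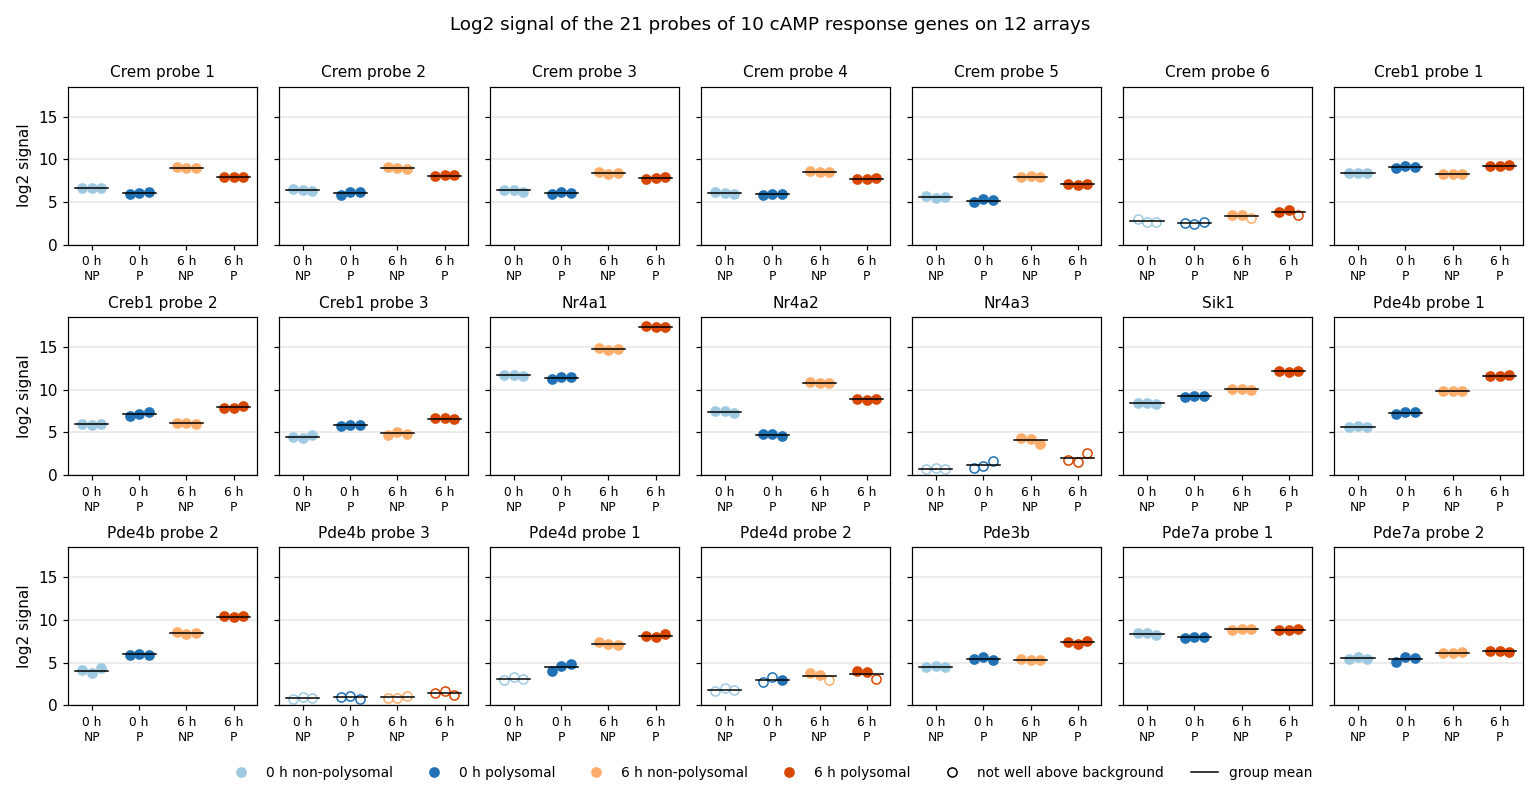
Log2 signal (y axis, after scaling by the spike-ins) of the 21 probes on the 12 arrays, by time and pool (x axis; NP, non-polysomal; P, polysomal), with 1 point per array, open where the probe was not well above background, and a line at the group mean. The 6 h points of Nr4a1, Nr4a2, Sik1 and Pde4b probes 1 and 2 lie above the 0 h points of the same pool on every array, and Pde4b probe 3 is open on all 12 arrays.

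Crem encodes activators and repressors of the cAMP response element, among them ICER, a short repressor made from an internal promoter that CREB itself drives. Of its 6 probes, the 5 under accession NM_013498 were well above background on all 12 arrays, and all 5 rose in both pools. For probe 1 the log2 signal in the non-polysomal pool was 6.69, 6.64 and 6.60 at 0 h and 9.04, 8.97 and 8.93 at 6 h. In the polysomal pool it was 5.92, 6.04 and 6.17 at 0 h and 7.91, 7.88 and 7.94 at 6 h. The times did not overlap in either pool, and at both times the polysomal arrays were the lower ones. Probe 1 rose by 2.33 ± 0.08 (log2, SE; adjusted p = 1.4e-08) or 5.04-fold in the non-polysomal pool and by 1.87 ± 0.08 (adjusted p = 2.3e-08) or 3.64-fold in the polysomal pool, which is 1.33 above the median of all probes. Over the 5 probes the non-polysomal log2 rise ranged from 2.05 to 2.53 and the polysomal one from 1.75 to 2.05. The files do not place the probes within the gene, so these values do not separate ICER from the longer products.

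The sixth Crem probe, under accession NM_001110851, was dim and went otherwise. It was not well above background on any array at 0 h and was so on 2 of 3 arrays of each pool at 6 h. Its log2 signal in the polysomal pool was 2.57, 2.46 and 2.63 at 0 h and 3.84, 4.07 and 3.50 at 6 h, so that the times did not overlap. Against the lowest level that counts as well above background, the polysomal rise was at least 1.79-fold (adjusted p = 0.00011). In the non-polysomal pool the difference was 0.62 ± 0.17 (log2, SE; adjusted p = 0.012) and was not called. The polysomal call was lost with scaling to the 75th percentile (0.77), with quantile normalization (0.79), with the authors' log2 values (0.61) and with normexp background correction (0.54).

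Creb1 encodes CREB, which PKA activates by phosphorylation of protein already present. None of its 3 probes, all under NM_009952, was called in either pool. The log2 signal of probe 1, printed in 10 spots per array and averaged, was 8.40, 8.43 and 8.35 at 0 h and 8.27, 8.23 and 8.25 at 6 h in the non-polysomal pool, and 8.96, 9.23 and 9.12 at 0 h and 9.17, 9.15 and 9.28 at 6 h in the polysomal pool. The times overlapped in the polysomal pool, while in the non-polysomal pool every 6 h array was slightly below every 0 h array. The differences were -0.14 ± 0.08 (log2, SE; adjusted p = 0.21) in the non-polysomal and 0.10 ± 0.08 (adjusted p = 0.30) in the polysomal pool, the latter at -0.44 relative to the median of all probes. Probes 2 and 3 differed by 0.76 and 0.77 in the polysomal pool, or 0.23 and 0.24 above the median of all probes, and by 0.14 and 0.40 in the non-polysomal pool. With the fit of a straight line to the spike-ins these 2 probes passed the limits in the polysomal pool (1.36 and 1.47), as they did with the offset from the dimmer spike-ins (1.17 and 1.18).

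The NR4A genes encode orphan nuclear receptors that many cell types switch on soon after a rise in cAMP, and Nr4a1 changed most of all members in the polysomal pool. Its log2 signal (NM_010444) in the non-polysomal pool was 11.67, 11.66 and 11.62 at 0 h and 14.85, 14.67 and 14.69 at 6 h. The polysomal arrays had 11.23, 11.47 and 11.53 at 0 h and 17.42, 17.28 and 17.34 at 6 h. The groups of the 2 times lay far apart in both pools. At 0 h the polysomal arrays were just below the non-polysomal ones and at 6 h they were the highest of all 12. Nr4a1 rose by 5.94 ± 0.09 (log2, SE; adjusted p = 2.0e-10) or 61.3-fold in the polysomal pool, 5.40 above the median of all probes, and by 3.09 ± 0.09 (adjusted p = 8.9e-09) or 8.51-fold in the non-polysomal pool. Over the other ways of processing, the polysomal rise was 5.42 to 6.34 and the non-polysomal one 2.57 to 3.12.

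Nr4a2 rose in both pools too, but its RNA was higher in the non-polysomal pool at both times. Its log2 signal (NM_013613) in the non-polysomal pool was 7.48, 7.47 and 7.26 at 0 h and 10.85, 10.80 and 10.75 at 6 h. Its polysomal signal was 4.86, 4.77 and 4.60 at 0 h and 8.94, 8.83 and 8.86 at 6 h. The 4 groups did not overlap, and their order from low to high was 0 h polysomal, 0 h non-polysomal, 6 h polysomal and 6 h non-polysomal. The rise was 4.13 ± 0.09 (log2, SE; adjusted p = 7.0e-10) or 17.6-fold in the polysomal pool, 3.60 above the median of all probes, and 3.40 ± 0.09 (adjusted p = 4.5e-09) or 10.5-fold in the non-polysomal pool.

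Nr4a3, the third receptor of the family, was close to background. Its log2 signal (NM_015743) in the non-polysomal pool was 0.73, 0.84 and 0.71 at 0 h and 4.37, 4.22 and 3.63 at 6 h, and only this last group was well above background, on all 3 arrays. In the polysomal pool it was 0.79, 1.04 and 1.68 at 0 h and 1.76, 1.56 and 2.55 at 6 h. The non-polysomal groups of the 2 times did not overlap, and the polysomal ones did. Nr4a3 rose at least 2.21-fold in the non-polysomal pool (adjusted p = 9.5e-06), with measured means of 0.76 and 4.07. No fold is given for the polysomal pool, where the probe was not well above background at either time (adjusted p = 0.045). The non-polysomal call was lost with the authors' log2 values, which are not background-subtracted (0.78), and with normexp background correction (0.49).

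Sik1 encodes a salt-inducible kinase that keeps the CREB coactivators of the CRTC family in the cytoplasm and is itself a CREB target. Its log2 signal (NM_010831) in the non-polysomal pool was 8.38, 8.41 and 8.34 at 0 h and 10.04, 10.05 and 10.00 at 6 h. The polysomal arrays had 9.08, 9.28 and 9.24 at 0 h and 12.12, 12.08 and 12.17 at 6 h. The groups did not overlap, and within each time the polysomal arrays were the higher ones. Sik1 rose by 2.93 ± 0.07 (log2, SE; adjusted p = 1.3e-09) or 7.61-fold in the polysomal pool, 2.39 above the median of all probes, and by 1.65 ± 0.07 (adjusted p = 6.4e-08) or 3.14-fold in the non-polysomal pool.

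Pde4b and Pde4d encode cAMP-specific phosphodiesterases, enzymes that IBMX inhibits. Probe 1 of Pde4b (NM_019840) had a log2 signal of 5.62, 5.72 and 5.64 at 0 h and 9.82, 9.80 and 9.86 at 6 h in the non-polysomal pool. Its polysomal signal was 7.14, 7.40 and 7.36 at 0 h and 11.60, 11.58 and 11.73 at 6 h. The 4 groups were apart, with the polysomal arrays above the non-polysomal arrays of the same time. The rise was 4.34 ± 0.08 (log2, SE; adjusted p = 4.1e-10) or 20.2-fold in the polysomal pool, 3.80 above the median of all probes, and 4.17 ± 0.08 (adjusted p = 1.1e-09) or 18.0-fold in the non-polysomal pool. Probe 2 rose by 4.43 ± 0.12 in the polysomal and by 4.38 ± 0.12 in the non-polysomal pool. Probe 3, which bears the same accession, was not well above background on any of the 12 arrays, and its log2 signal lay between 0.76 and 1.71, so that the probes of Pde4b disagree.

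Pde4d rose as well, by probe 1 (NM_011056) in both pools. Its log2 signal in the non-polysomal pool was 3.01, 3.36 and 3.04 at 0 h, not well above background, and 7.40, 7.15 and 7.09 at 6 h. In the polysomal pool it was 4.04, 4.59 and 4.86 at 0 h and 8.10, 7.96 and 8.32 at 6 h. No 6 h array came near a 0 h array of its pool. In the non-polysomal pool the measured rise was 4.08 ± 0.20 (log2, SE; adjusted p = 1.5e-07) or 16.9-fold, from means of 3.14 and 7.22. This fold rests on 0 h signals that were not well above background. Over the alternatives the non-polysomal rise was 1.64 to 4.52 on the log2 scale and stayed called. The polysomal rise was 3.63 ± 0.20 (log2, SE; adjusted p = 1.6e-07) or 12.4-fold, 3.09 above the median of all probes. Probe 2 was well above background on 2 of 3 arrays of each pool at 6 h, on 1 of 3 in the 0 h polysomal and on none in the 0 h non-polysomal group. It was called in the non-polysomal pool, at least 1.41-fold (adjusted p = 0.0013), and not in the polysomal pool (0.68 ± 0.29, adjusted p = 0.066), and the non-polysomal call was lost with the authors' log2 values (0.24) and with normexp (0.14).

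Pde3b encodes the phosphodiesterase through which insulin lowers cAMP in fat cells. Its log2 signal (NM_011055) in the non-polysomal pool was 4.50, 4.62 and 4.48 at 0 h and 5.40, 5.27 and 5.31 at 6 h. The polysomal arrays had 5.44, 5.62 and 5.26 at 0 h and 7.41, 7.22 and 7.48 at 6 h. The times did not overlap in either pool, and the 6 h polysomal arrays were the highest by a wide margin. Pde3b rose by 1.93 ± 0.11 (log2, SE; adjusted p = 1.5e-07) or 3.81-fold in the polysomal pool, 1.39 above the median of all probes. In the non-polysomal pool the difference of 0.79 ± 0.11 (adjusted p = 0.00014) did not reach the limit on its size.

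Pde7a encodes a cAMP-specific phosphodiesterase of high affinity. Probe 1 (NM_008802) had a log2 signal of 8.43, 8.47 and 8.28 at 0 h and 8.85, 8.89 and 8.96 at 6 h in the non-polysomal pool, and of 7.85, 8.02 and 8.04 at 0 h and 8.86, 8.77 and 8.93 at 6 h in the polysomal pool. Although the times did not overlap, the differences were small, 0.51 ± 0.09 (log2, SE; adjusted p = 0.00068) and 0.88 ± 0.09 (adjusted p = 9.2e-06), the latter 0.35 above the median of all probes. Probe 2 gave 0.65 ± 0.14 and 0.89 ± 0.14. Neither probe was called, but both passed in the polysomal pool with the fit of a straight line to the spike-ins (1.42 and 1.61) and with the offset from the dimmer spike-ins (1.29 for both), and probe 2 also without replicate 2 of the 0 h polysomal group (1.02).

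**Figure D2:**
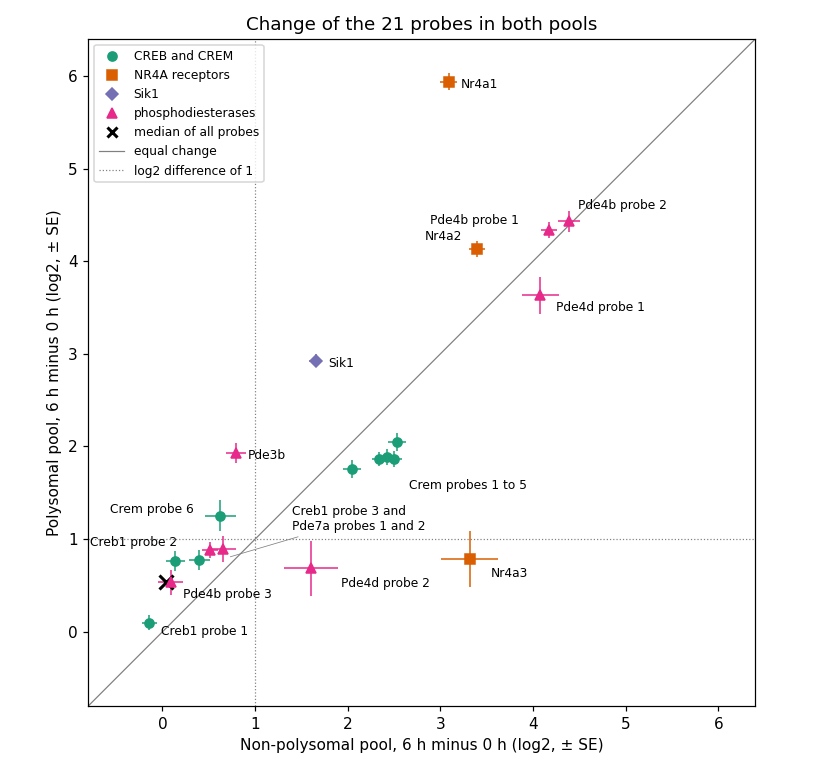
Log2 difference between 6 h and 0 h of the 21 probes in the non-polysomal pool (x axis) and in the polysomal pool (y axis), with bars of 1 SE from limma, 3 arrays per group, by role. Nr4a1 (3.09, 5.94), Sik1 (1.65, 2.93) and Pde3b (0.79, 1.93) lie above the line of equal change, Nr4a3, not well above background in the polysomal pool at either time, lies below it, and the median of all probes is at 0.04 and 0.54.

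Whether the polysomal share of a transcript moved was compared by the M-value, the polysomal change minus the non-polysomal change on the log2 scale. Of the 21 probes 3 had a called M-value above 1 and 1 below -1, against 12.1% and 1.32% of all probes tested. The median M-value was 0.24 for the 21 probes and 0.49 for all probes. The 3 higher ones were Nr4a1, Sik1 and Pde3b and the lower one was Nr4a3. These counts turned with the scaling, to 1 higher and 3 lower with the 75th percentile, to 1 and 7 with quantile normalization and to 9 and 1 with the fit of a straight line to the spike-ins.

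The M-value of Nr4a1 was 2.85 ± 0.13 (log2, SE; adjusted p = 1.3e-06), 2.36 above the median of all probes. Within the 3 slides it was 3.02, 2.79 and 2.74, and it was called under each of the 22 alternatives run on probes, with values of 2.43 to 3.30. Sik1 had an M-value of 1.27 ± 0.10 (adjusted p = 1.6e-05), 0.79 above the median, with 1.38, 1.17 and 1.27 within the slides. Pde3b had 1.14 ± 0.15 (adjusted p = 0.00030), 0.65 above the median, with 1.07, 0.95 and 1.39 within the slides. Both kept their sign under each alternative and fell short of the limit with the 75th percentile (0.85 and 0.72) and with quantile normalization (0.76 and 0.50), and Pde3b also with normexp (0.95).

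Nr4a3 had an M-value of -2.53 ± 0.43 (log2, SE; adjusted p = 0.0013), and -2.68, -2.86 and -2.05 within the slides. It compares signals that were not well above background in 3 of the 4 groups. With the authors' log2 values it was -0.16, and with normexp it turned to 0.051. Nr4a2 had 0.74 ± 0.13 (adjusted p = 0.0014), or 0.25 above the median, and was not called. The M-value of Nr4a2 passed with the fit of a straight line to the spike-ins (1.37) and with the offset from the dimmer spike-ins (1.19). Its lowest value over the alternatives was -0.31.

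The Crem probes under NM_013498 had M-values of -0.63 to -0.30, that is 0.78 to 1.12 below the median of all probes, and none was called. All 5 were negative within each of the 3 slides. Quantile normalization, which gives all arrays the same distribution, called 3 of them lower, and the 75th percentile called probe 4 lower (-1.06). With the fit of a straight line to the spike-ins all 5 turned positive without being called (0.08 to 0.42). The Pde4b probes 1 and 2 had M-values of 0.17 and 0.04, and Pde4d probe 1 had -0.45 ± 0.28 (adjusted p = 0.22). Quantile normalization called Pde4b probe 2 and Pde4d probe 1 lower (-1.004 and -1.49). Pde4d probe 2 had -0.92 ± 0.41 (adjusted p = 0.11) and was not called. That probe was called lower with the 75th percentile (-1.34), with quantile normalization (-1.59) and without replicate 3 of the 6 h non-polysomal group (-1.17).

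**Figure D3:**
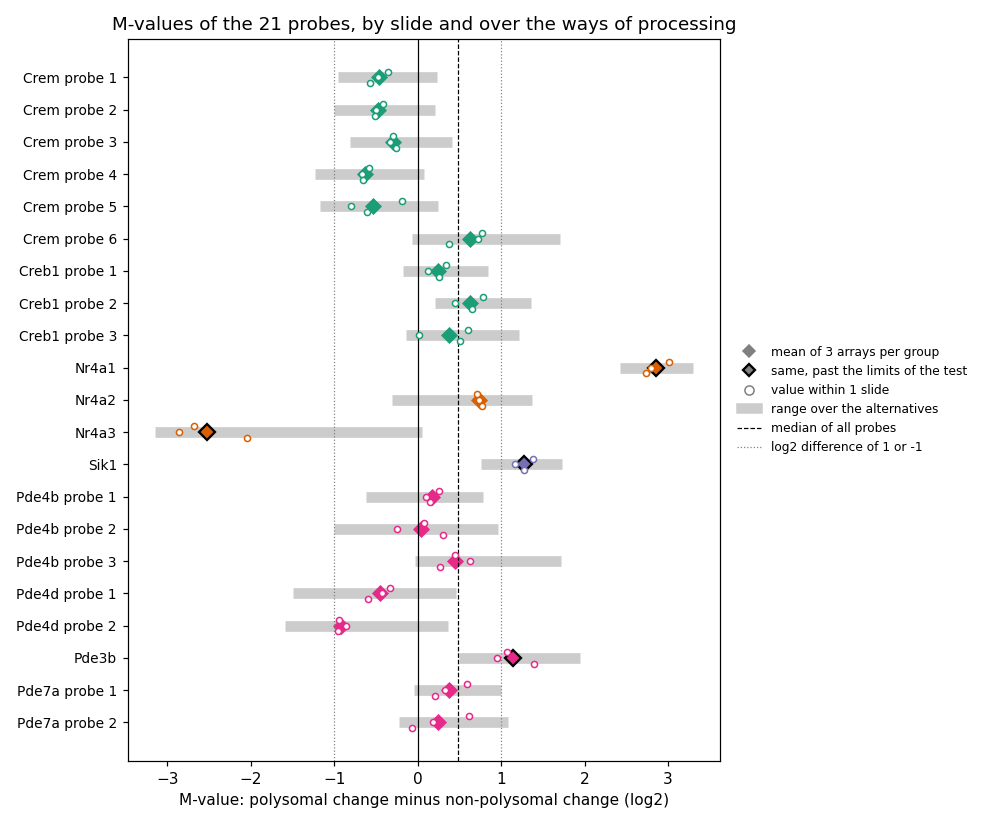
M-values (x axis, log2) of the 21 probes, with a diamond for the value from all arrays, outlined in black where it passed the limits, open circles for the values within the 3 slides, and a grey bar for the range over the alternatives. Nr4a1 (2.85), Sik1 (1.27) and Pde3b (1.14) are outlined on the right and Nr4a3 (-2.53) on the left, and the bar of Nr4a3 reaches past 0.

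The pools were also compared within each time. At 0 h 6 of the 21 probes were called higher in the polysomal pool and 1 lower, against 27.3% and 9.83% of all probes, and at 6 h 7 were higher and 3 lower, against 37.3% and 6.42%. With scaling to the 75th percentile the counts turned to 0 and 9 at 0 h and to 1 and 10 at 6 h, so most of these calls rest on the scaling. The log2 difference of Nr4a2, polysomal minus non-polysomal, was -2.66 ± 0.09 (SE; adjusted p = 3.1e-09) at 0 h and -1.92 ± 0.09 (adjusted p = 1.3e-08) at 6 h, and both were called under each alternative. Nr4a1 went from -0.24 ± 0.09 (adjusted p = 0.052) at 0 h to 2.61 ± 0.09 (adjusted p = 1.9e-09) at 6 h, and the latter was called under each alternative, with values of 1.30 to 2.99. Sik1 and Pde3b had 0.82 and 0.91 at 0 h, not called, and 2.10 and 2.04 at 6 h, both called, but not with the 75th percentile (0.79 and 0.73). Sik1 also lost the 6 h call with quantile normalization (0.66). Pde4b probes 1 and 2 and Creb1 probes 2 and 3 were higher in the polysomal pool at both times, by 1.21 to 1.93. All of these calls were lost with the 75th percentile. With quantile normalization the Creb1 probes lost their calls at both times and the Pde4b probes those at 6 h (0.39 and 0.56). The 0 h calls of both genes were also lost with normexp, and those of Creb1 with the authors' values too.

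The rest of the pathway was taken from a list of other genes with a role in cAMP signaling, 132 probes of 74 genes. In the polysomal pool 37 of these probes (28.0%) rose and 11 (8.33%) fell, beside 19.2% and 5.00% of all probes. Of these calls, 17 rises and 6 falls came from the 31 probes of other CREB target genes, given below. In the non-polysomal pool 15 of the 132 probes (11.4%) rose and 12 (9.09%) fell, beside 8.12% and 8.11%, which is near the background. Nothing particular to the smaller lists is read from their counts. The median log2 difference of the 132 probes was 0.60 in the polysomal and 0.05 in the non-polysomal pool, beside 0.54 and 0.04 for all probes. The number of polysomal rises ranged from 22 with the 75th percentile to 83 with the line fitted to the spike-ins.

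Upstream of CREB, 3 of 25 probes of adenylyl cyclases and G proteins rose (12.0%) and 1 fell (4.00%) in the polysomal pool, no more than among all probes. Gnas, the stimulatory G protein subunit, had 1.24 ± 0.08 (log2, SE; adjusted p = 3.1e-07) and the cyclase Adcy3 had 1.05 ± 0.21 (adjusted p = 0.0020), and both calls were lost with the 75th percentile and with quantile normalization, that of Adcy3 also with the authors' values, with normexp and without replicate 1 of the 0 h polysomal group. At 1 probe of Adcy7, another cyclase, the signal fell by 1.78 in the polysomal and by 1.81 in the non-polysomal pool (adjusted p = 2.4e-06 and 3.3e-06). Both calls were lost with normexp (-0.68 and -0.49), and the non-polysomal one also with the authors' values. Another probe of Adcy7 was called lower in the non-polysomal pool but was not called in the polysomal pool. Of 15 probes of PKA subunits and inhibitors 4 rose (26.7%) and 0 fell in the polysomal pool by limma. At an unadjusted p below 0.05, 10 were higher (66.7%) and 2 lower (13.3%), beside 53.7% and 12.3% of all probes. The 4 rises came from only 2 of the 9 genes, the regulatory subunits Prkar2a (2.03 ± 0.15, adjusted p = 1.2e-06) and Prkar1b (1.44 ± 0.13, adjusted p = 5.4e-06). The call of Prkar1b was lost with the 75th percentile, with the authors' values and with normexp, where it came to as little as 0.73.

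Of 20 probes of Epac and of PKA anchoring proteins, 7 rose (35.0%) and 2 fell (10.0%) in the polysomal pool, beside 19.2% and 5.00% of all probes. In the non-polysomal pool 5 rose (25.0%) and 1 fell (5.00%), beside 8.12% and 8.11%. Rapgef3, which encodes the cAMP sensor Epac1, fell by 2.28 in the polysomal and by 2.01 in the non-polysomal pool (adjusted p = 3.1e-09 and 1.3e-08), under each alternative. The anchor Akap13 fell by 1.64 in the polysomal pool (adjusted p = 1.1e-06), and Akap1, which tethers PKA to mitochondria, rose by 1.91 ± 0.13 (adjusted p = 6.3e-07). In the same list Akap8 rose by 1.33 ± 0.09 (adjusted p = 5.5e-07), a call lost with the 75th percentile and with quantile normalization (0.80 at the lowest).

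The partners of CREB were near the background. Of 16 probes of the CREB family, its coactivators and their kinases, 2 rose (12.5%) and 1 fell (6.25%) in the polysomal pool and 0 passed in the non-polysomal pool by limma. In the non-polysomal pool 2 were higher (12.5%) and 4 lower (25.0%) at an unadjusted p below 0.05, beside 22.7% and 22.1% of all probes. Sik2 and Sik3, relatives of Sik1, had 1.23 ± 0.29 (log2, SE; adjusted p = 0.0046) and 1.06 ± 0.12 (adjusted p = 0.00011) in the polysomal pool, and both lost the call with the 75th percentile, with quantile normalization and with the authors' values, Sik2 also with normexp and Sik3 also without replicate 1 of the 0 h polysomal group. The coactivator Crebbp had -1.18 ± 0.22 (adjusted p = 0.0012) and lost it with the authors' values, with normexp, and with the line fitted to the spike-ins or the offset from the dimmer ones.

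Of 25 probes of other phosphodiesterases 4 rose (16%) and 1 fell (4.00%) in the polysomal pool, and in the non-polysomal pool 1 rose (4.00%) and 2 fell (8%), shares near or under those of all probes. Pde2a, which cGMP stimulates, rose by 2.01 ± 0.24 (log2, SE; adjusted p = 4.2e-05) in the polysomal pool and had 0.26 in the non-polysomal pool (adjusted p = 0.49). Pde1c, not well above background in the polysomal pool at 0 h, rose there at least 2.32-fold (adjusted p = 0.0014, with measured log2 means of 2.13 and 4.18), a call lost with the authors' values and with normexp. Pde1b, which calcium and calmodulin activate, fell by 2.55 in the polysomal and by 2.16 in the non-polysomal pool (adjusted p = 2.0e-08 and 1.2e-07).

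Among other known CREB target genes, 17 of 31 probes rose (54.8%) and 6 fell (19.4%) in the polysomal pool, beside 19.2% and 5.00% of all probes. In the non-polysomal pool 9 rose (29.0%) and 6 fell (19.4%), beside 8.12% and 8.11%. Dusp1, a phosphatase that switches off MAP kinases, rose by 4.75 ± 0.07 (log2, SE; adjusted p = 1.9e-10) in the polysomal and by 4.20 in the non-polysomal pool (adjusted p = 6.4e-10). Cebpb, which encodes C/EBPβ, an early factor of adipogenesis, rose by 4.36 ± 0.09 (adjusted p = 5.7e-10) and by 2.82 (adjusted p = 1.3e-08), with a called M-value of 1.54. In the opposite direction, Ppargc1a, a coactivator of mitochondrial genes, fell by 4.10 and by 3.98 (adjusted p = 2.0e-09 and 5.0e-09), and the immediate early gene Egr1 fell by 2.15 and by 2.22 (adjusted p = 2.2e-07 and 3.3e-07). These 4 genes were called in both pools under each alternative. The list thus held probes called higher and probes called lower, while none of the 21 probes of the 10 genes was called lower. Genes and lists were chosen with earlier results of these data known, so this difference is not a test.

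**Figure D4:**
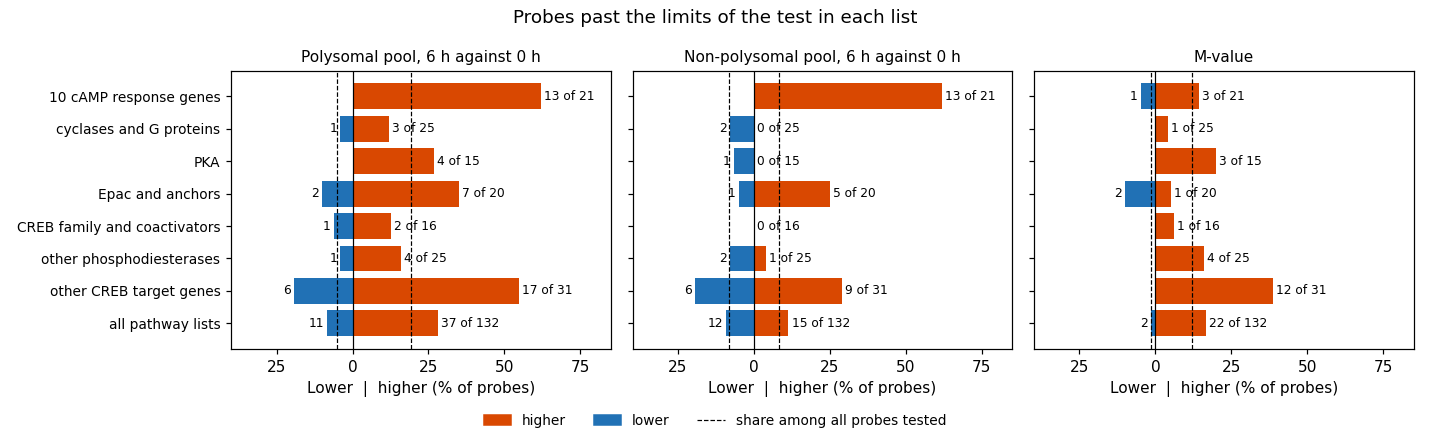
Share of the probes of each list (x axis, percent) that were called higher (right) or lower (left) in the polysomal pool, in the non-polysomal pool and by M-value, with counts beside the bars and dashed lines at the share among all probes tested. The bar of the 10 cAMP response genes reaches 13 of 21 probes in both pools with none lower, and that of the other CREB target genes reaches 17 of 31 in the polysomal pool with 6 lower.

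The genes whose pattern over the 12 arrays was most like that of a member were sought among 16567 probes with a gene symbol that were well above background on every array, for the brightest such probe of each role. Pearson's r is a description here, since the 12 arrays share their groups and scaling. Nr4a1 was most like Uap1 (r = 0.9994), Lce1h (0.9985) and Lce1i (0.998). Sik1 was most like Nmnat2 (0.9988), Polr3e (0.9988) and Rhod (0.9984). Among the genes most like Pde4b were Vdr, the vitamin D receptor gene (0.9994), and Rgs2 (0.9992). Creb1 was most like Plk2 (0.9964), Ap2b1 (0.9963) and Arl14ep (0.9963). The polysomal rise of Uap1 was 6.13 on the log2 scale beside 5.94 for Nr4a1, and that of Vdr was 6.02 beside 4.34 for Pde4b.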

How the data were processed

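Per the labels, RNA of 3T3-L1 cells at 0 h and 6 h after induction, as a non-polysomal and a polysomal pool, was hybridised to 12 one-color Agilent arrays, 3 per group, which the methods call biological replicates. The deposited scanner files (Feature Extraction 10.7.1.1) hold background-subtracted intensities per spot, the median pixel intensities of spot and background, and flags. The authors also deposited log2 values per probe, made from median pixel intensities without background subtraction and shifted per array.

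Here the log2 of the background-subtracted intensity was used without the outlier spots (94 to 221 per array, none of them leaving a gap among the 21 probes), averaged over the spots of a probe, and the mean of 10 spike-in transcripts was subtracted from each array. Probes were named by transcript accession through a RefSeq table, which gave a symbol for 26690 of 41174 probes (64.8%). The 4 groups were fitted in R 4.3.3 with limma 3.58.1 (lmFit, eBayes, Benjamini-Hochberg adjustment over all probes, no block), with files parsed by the package data.table, version 1.17.8. A call needed an adjusted p below 0.05 and a log2 difference above 1 or below -1. Figures were drawn with matplotlib 3.10.9.

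As a measure of array brightness, the 75th percentile of intensity was 241 to 269 and 449 to 514 in the non-polysomal and polysomal pool at 0 h, and 253 to 281 and 426 to 567 at 6 h. For a probe that no array of a group rated well above background, the fold is a bound, taken per array against the higher of the lowest signal so rated and the signal of the probe itself. Every probe of the 10 genes is reported, and of each pathway list the called probes with the 2 highest and 2 lowest polysomal differences. The genes and lists were chosen with earlier results of these data known. The steps were tested on simulated data. Alternatives were other scalings (75th percentile, quantile, a line fitted to the spike-ins), normexp with an offset of 50, the authors' log2 values, a filter on dim probes, outlier spots kept, a prior variance that follows intensity, the replicate number as a block, probes averaged by gene, and leaving out each array. The offset from the dimmer spike-ins, and normexp without spots of non-uniform background, were chosen after seeing the data. A gene among those most like a member in pattern is not reported here.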

Additional observations from a re-analysis of the deposited data

Results flagged for a closer look

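By the test of the M-value in limma, 11 of the 21 probes had an adjusted p below 0.05 (36.0% of all probes did), and for 4 of them the M-value was also above 1 or below -1. These were 3 above and 1 below, beside 12.1% and 1.32% of all probes. Nr4a1 had an M-value of 2.85, Sik1 of 1.27 and Pde3b of 1.14, with a larger change in the polysomal pool on each of the 3 slides. Sik1 and Pde3b lost the call with the 75th percentile and with quantile normalization, and Pde3b also with normexp. Nr4a3 had an M-value of -2.53, with a larger change in the non-polysomal pool on each slide, from signals that were well above background only in the 6 h non-polysomal group, and lost the call with the authors' log2 values and with normexp.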

How the results depend on the processing

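The counts of rises from 0 h to 6 h held best. In the polysomal pool 12 to 19 of the 21 probes were called higher under the alternatives except when a straight line was fitted to spike-ins, where 20 were, and in the non-polysomal pool 11 to 13 were. Among up to 41174 probes in all, polysomal rises then numbered 3204 (quantile) to 15279 (dimmer spike-ins), and 26366 with the straight line. The non-polysomal ones numbered 1771 to 3541. The larger polysomal counts of the 21 probes thus came with larger counts over all probes. Probes averaged by gene, or by accession where there was no symbol, gave 7 of 10 genes in each pool. Of all 32301 such averages 5847 were called higher in the polysomal and 2353 in the non-polysomal pool. Leaving out each array in turn gave 13 to 14 polysomal (14 without replicate 2 or 3 of the 0 h polysomal group, through Pde7a probe 2 at 1.02 and Nr4a3 at 1.04) and 13 non-polysomal rises, 3 M-values above 1, 1 to 2 below -1 (2 without replicate 3 of the 6 h non-polysomal group, through Pde4d probe 2 at -1.17), 6 higher and 1 lower between the pools at 0 h, and 7 to 8 higher (8 without replicate 1 of the 6 h non-polysomal group, through Pde4d probe 1 at 1.005) and 3 lower at 6 h.

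Comparisons that set the pools against each other turned with the scaling, which moved the median M-value of all probes from 0.49 to 0.06 with the 75th percentile, to 0.00 with quantile normalization and to 1.42 with the straight line. The 75th percentile gave 1 M-value above 1 and 3 below -1, 0 higher and 9 lower in the polysomal pool at 0 h, and 1 higher and 10 lower at 6 h. There Pde4d probe 2 and Pde7a probe 2 turned at 6 h, to -1.03 and -1.17. Quantile normalization gave 1 M-value above 1 and 7 below -1, 5 lower at 0 h, and 2 higher and 8 lower at 6 h, and turned the M-value of Pde4b probe 2 to -1.004. The straight line gave 9 M-values above 1 and 12 higher at 6 h, and the dimmer spike-ins alone gave 6 M-values above 1. With the authors' log2 values 0 M-values were below -1, 2 probes were higher at 0 h and 1 was lower at 6 h. Normexp without spots of non-uniform background gave 0 M-values below -1, 0 higher at 0 h and 1 lower at 6 h, and turned the M-value of Nr4a3 to 0.051 and its 6 h difference between the pools to 0.080. Over all probes, polysomal rises numbered 7903, with a range of 3204 (quantile) to 26366 (straight line), and falls 2058, with a range of 674 (normexp) to 4073 (75th percentile). M-values above 1 numbered 4964 (1268 to 26102) and below -1 543 (57 to 1573). Non-polysomal rises and falls were 3343 (1771 to 3541) and 3336 (1125 to 4242). Polysomal against non-polysomal, 11238 were higher (4787 to 11590) and 4044 lower (1965 to 10979) at 0 h, and 15374 higher (5058 to 31259) and 2645 lower (1202 to 9131) at 6 h.

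With the replicate number as a block the counts were 13 and 0 in the polysomal and 13 and 0 in the non-polysomal pool, 3 and 1 for the M-value, 6 and 1 at 0 h and 7 and 3 at 6 h, each as without the block. Same-numbered arrays, which are those joined in the values within a slide, correlated above 0.1 in 4 of 18 pairs (-0.10 to 0.42). The numbers were therefore not taken to pair the samples in the main fit, and the values within a slide are a description. The planned normexp over all spots could not be fitted on 3 arrays, and the files used hold no mean spot signal, so the median was used in its place. Signal over background limits Nr4a3, Crem probe 6, Pde4d probe 2, Pde4b probe 3 and, in the 0 h non-polysomal group, Pde4d probe 1.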
